A study of Homo sapiens with 11 samples.

Results

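The nuclear-encoded subunits of the oxidative phosphorylation complexes were examined on arrays of Reh, a human line of B-precursor acute leukaemia that carries the ETV6-RUNX1 fusion. Members were matched by gene symbol, namely the NDUF subunits of complex I, SDHA to SDHD, the UQCR genes and CYC1, COX4 to COX8 and the ATP5 genes, without assembly factors or pseudogenes. This group of genes was chosen with earlier results of these data known. The rule found 78 members among 19777 measured genes, 33 in complex I, 3 in complex II, 7 in complex III, 17 in complex IV and 18 in complex V. The other genes that it matches, 10 in number, had no probe set of their own and were not analysed here. All cells had first been infected with a virus to express miR-125b stably, so every group, control included, carried miR-125b. They then had 2 transfections, 72 h apart, with precursor oligonucleotides of miR-99a at 66 µM (3 arrays), of miR-100 at 66 µM (3 arrays), of both at 33 µM each (3 arrays), or of a scrambled sequence at 66 µM (2 arrays), and were harvested 48 h after the second transfection. The labels speak of triplicate incubation but not of what a replicate number stands for, so the p-values measure the spread between these 11 samples, which may be partly technical. The control group has no replicate 3 among them, and 1 cell line is the only model.

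The respiratory chain oxidises NADH (complex I) and succinate (complex II), passes the electrons over ubiquinone, complex III and cytochrome c to complex IV, and pumps protons across the inner mitochondrial membrane in complexes I, III and IV. Complex V, the ATP synthase, uses that gradient to make ATP. Complexes I, III, IV and V mix proteins from nuclear genes with a few from mitochondrial DNA, whereas complex II is built from nuclear genes alone. In many lymphoid leukaemia cells the chain works beside a high rate of glycolysis. The transfected microRNAs belong to a family with a shared seed, the stretch that pairs with messenger RNA, shown here in capitals because it sets which messenger RNAs they could share. The mature forms in RefSeq (GRCh38.p14) lie at chr11:122152275-122152296 on the minus strand (miR-100) and chr21:16539101-16539122 on the plus strand (miR-99a). They differ by the single substitution U16A, counted from the 5′ end, with the miR-99a base first.
hsa-miR-100-5p: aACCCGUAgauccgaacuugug
hsa-miR-99a-5p: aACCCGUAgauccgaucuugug

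Values are log2 expression as deposited, 1 probe set per gene. A gene was called when its adjusted p in limma, over all 19777 genes, was under 0.05, and log2 differences are given with their SE. Arrays numbered replicate 3 lay at -21.4 to -18.0 on the first principal component, which held 53.2% of the variance, against 7.78 to 12.4 for treated replicates 1 and 2 and -3.42 and 2.12 for control. Array medians differed little, at 5.95 to 5.98. Of the B-precursor markers 9 of 11 measured were above 7, with a mean over the list of 10.01 to 10.08 in replicate 3, 9.96 to 10.16 in replicates 1 and 2 and 9.97 to 10.11 in control. Single genes of that list moved in both directions in replicate 3, with CD79A at -0.56 (adjusted p 4.74e-08), IGLL1 at -0.18, RAG1 at 0.18 and MME at 0.27 called and 7 not. Markers of other lineages were near the floor of the arrays, with 0 of 5 T and NK cell genes, 1 of 5 myeloid genes, 0 of 3 erythroid and platelet genes and 1 of 4 fibroblast and epithelial genes above 7. The 3′ to 5′ difference of the GAPDH control probe sets, a measure of RNA integrity, was 0.562 to 0.715 in replicate 3, 0.530 to 0.630 in replicates 1 and 2, and 0.517 to 0.576 in control. For ACTB it was 2.52 to 2.85, 2.45 to 3.17 and 2.56 to 2.96 in the same order. The part of RNA quality in what follows was not tested.

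Most members were lower in replicate 3 of the treated cells than in replicates 1 and 2, while 10 were higher, among them NDUFS1, SDHA, UQCRC2 and ATP5F1A. Within the treatments 56 members were called lower and 10 higher, and 12 were not called (n = 3 against 6). Of all genes 12.2% were called lower and 17.1% higher. The contrast sets 1 replicate number against 2, and the test counts arrays of the same number as independent. Where such arrays share a source, the SE and p-values of this comparison are too small. The median log2 difference of the members was -0.53, a ratio of 0.693, and the range ran from -0.84 to 0.40. The median of all genes was 0.00. Among the 1398 other genes with a mean level like that of the members, between 9.96 and 12.67, the median was -0.08, with 608 called lower and 383 higher. They share only this band with the members and were not matched gene by gene. Their median level was lower in every array, as in miR-99a replicate 1 with 10.75 against 11.48 for members. Arrays of replicate 3 and of replicates 1 and 2 did not overlap in 53 members on the lower side and 9 on the higher side, against 11% and 14.9% of all genes. Of the 1398 genes of like level, 507 did not overlap on the lower side and 335 on the higher side. In bulk RNA a smaller share of cells with a transcript and less transcript per cell cannot be told apart.

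**Figure D1:**
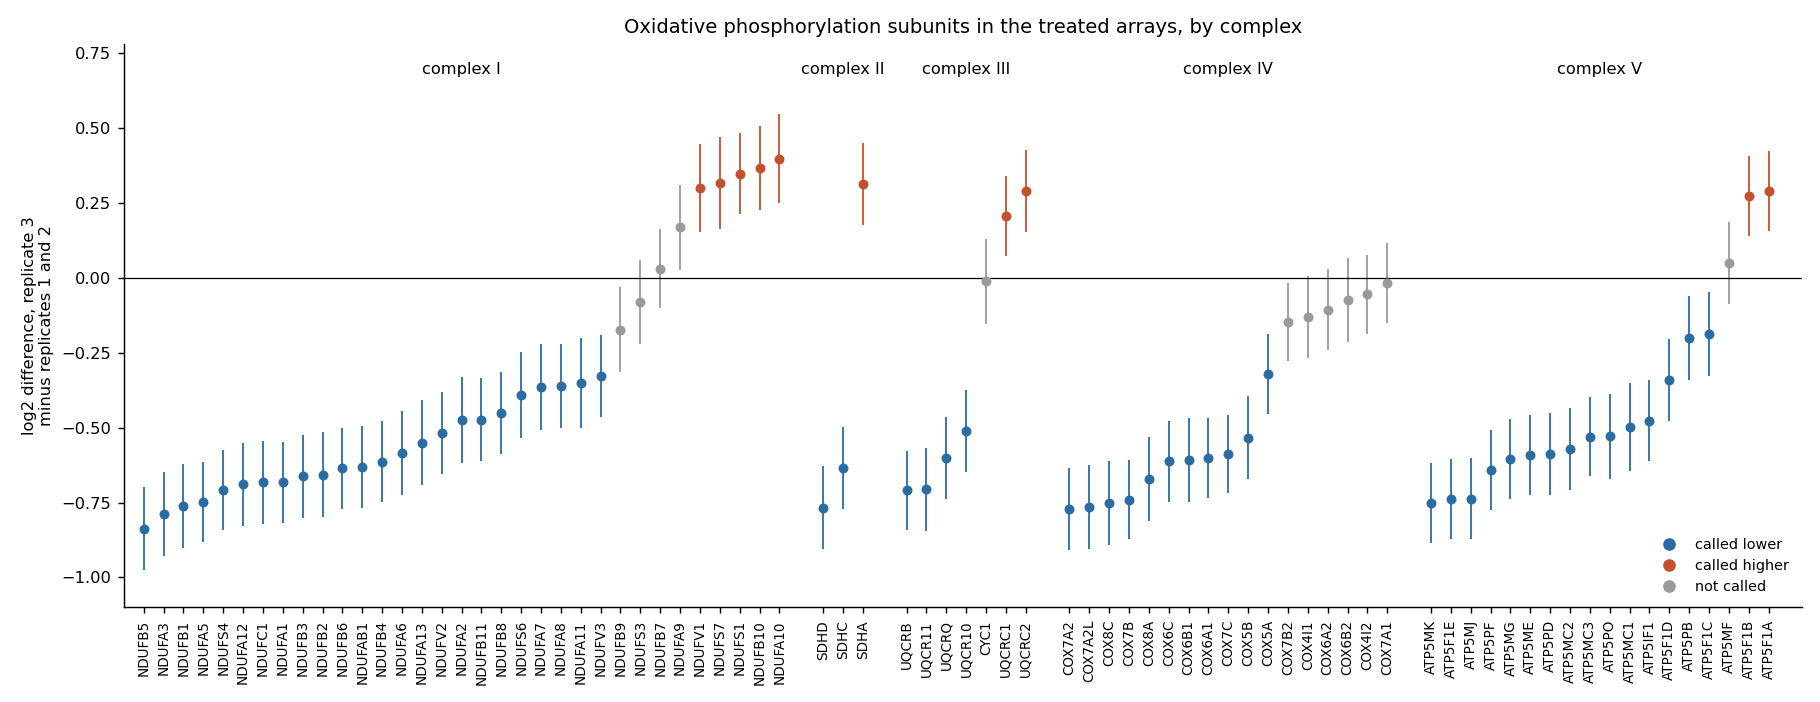
Log2 difference of each of the 78 members between replicate 3 (3 arrays) and replicates 1 and 2 (6 arrays) of the treated cells, ordered within complexes I to V. Points are the fitted differences, bars their 95% intervals and colours the call at an adjusted p of 0.05 over all genes. The 10 members called higher lie in complexes I, II, III and V, and complex IV has none.

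The members were also divided by a list. It names 20 subunits, most of them catalytic, electron-carrying or core, and was written with earlier results of these data known. It includes COX4I1, COX5A and COX5B of complex IV, whose catalytic subunit COX1 comes from mitochondrial DNA. It leaves out NDUFS3, a core subunit of complex I, so the division is only roughly one of role. Of the list 16 genes were measured. Of these, 8 were called higher, 6 lower and 2 not, with a median log2 difference of 0.10. Among the other 62 members 2 were called higher, 50 lower and 10 not, with a median of -0.59. The 6 lower ones of the list of 20 were NDUFV2, SDHC, SDHD, COX5A, COX5B and ATP5F1C.

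Complex I had 24 members lower, 5 higher and 4 not called, with a median log2 difference of -0.47. NDUFS1, its largest subunit and a carrier of iron-sulphur clusters, had log2 levels of 9.64 for miR-99a, 9.70 for miR-100 and 9.50 for both oligos in replicate 3. In treated replicates 1 and 2 it ranged over 9.12, 9.27 and 9.40 (lowest, median, highest), and the control arrays had 9.47 and 9.35. All 3 replicate 3 arrays thus lay above the other 6 treated arrays, and also above both control arrays. The log2 difference was 0.35 ± 0.07 (adjusted p 4.86e-05). Both of its other probe sets above 7 were higher as well, by 0.24 and 0.25.

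NDUFA10, an accessory subunit of the membrane arm, had the largest rise of the members, 0.40 ± 0.07 (adjusted p 2.21e-05). Its levels were 9.94, 10.20 and 9.94 in replicate 3 with miR-99a, miR-100 and both, against 9.45, 9.60 and 9.83 as lowest, median and highest in replicates 1 and 2, and 9.87 and 9.92 in control. The replicate 3 arrays stood above the other treated arrays and only just above control. NDUFB10, another accessory subunit, was higher by 0.37 ± 0.07. The other probe set of NDUFB10, with a mean of 9.07, had only 0.11 and was not called (adjusted p 0.281 in limma). NDUFV1, which binds NADH and the flavin, was higher by 0.30 ± 0.07, and NDUFS7, which holds the cluster next to the quinone site, by 0.32 ± 0.08. The calls of NDUFV1 and NDUFS7 ended without miR-100 replicate 3 (0.19, adjusted p 0.0907, and 0.22, adjusted p 0.0802). Averaging each gene with its probe sets below 7 ended the calls of NDUFA10 (0.07, adjusted p 0.348), NDUFV1 (0.12, adjusted p 0.117) and NDUFS7 (0.05, adjusted p 0.628). Taking each gene as the mean of its probe sets also made several falls smaller by over 1.5 times, with calls kept, as in NDUFB1 (-0.34), SDHD (-0.38), SDHC (-0.36), UQCR11 (-0.35), ATP5F1E (-0.32), ATP5MC2 (-0.28), COX6A1 (-0.39) and COX7B (-0.44). The medians of complexes II and V were then -0.36 and -0.30.

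The largest fall of any member was that of NDUFB5, an accessory subunit of the membrane arm. Its log2 levels were 10.02, 10.17 and 10.02 in replicate 3 with miR-99a, miR-100 and both, against 10.75, 10.93 and 11.01 (lowest, median, highest) in replicates 1 and 2 and 10.56 and 10.78 in control. Every replicate 3 array lay below every other array, and the log2 difference was -0.84 ± 0.07 (adjusted p 2.86e-13), a ratio of 0.56. Other small accessory subunits followed, NDUFA3 at -0.79, NDUFB1 at -0.76 and NDUFA5 at -0.75, each with an SE of 0.07. NDUFS4, an accessory subunit mutated in Leigh syndrome, had -0.71 ± 0.07. NDUFAB1, the mitochondrial acyl carrier protein, had -0.63 ± 0.07. NDUFV2, the partner of NDUFV1 in the NADH-oxidising module, went the other way from it, with -0.52 ± 0.07 (adjusted p 2.45e-08). NDUFS3, a core subunit at -0.08, NDUFB7 at 0.03, NDUFB9 at -0.17 and NDUFA9 at 0.17 were not called. NDUFB9 was called lower with array weights (-0.24, adjusted p 0.00286), with replicate number as a block (adjusted p 0.0393) and with genes below the median level left out. It was also called without miR-100 replicate 2 or miR-100 replicate 3. NDUFA9 was called higher after quantile normalization (0.19, adjusted p 0.0141), with the block (adjusted p 0.0456) and with genes below the median level left out. The call of NDUFA9 was also gained without miR-99a replicate 2, miR-99a replicate 3 or miR-100 replicate 1.

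Complex II had 2 members lower and 1 higher, with a median log2 difference of -0.63. SDHA, the flavoprotein that oxidises succinate, had levels of 10.74, 10.79 and 10.67 in replicate 3 with miR-99a, miR-100 and both, against 10.34, 10.38 and 10.54 (lowest, median, highest) in replicates 1 and 2, and 10.53 and 10.59 in control. Its replicate 3 arrays lay above all others, by 0.31 ± 0.07 on the log2 scale over the treated ones (adjusted p 0.000226). The probe set of SDHA is of a type whose probes can also match other sequences, and near-copies of SDHA exist in the genome, so the signals cannot be told apart. SDHD, a membrane anchor of the complex, had 10.53, 10.62 and 10.35 in replicate 3 with the same treatments, against 11.14, 11.29 and 11.34 in replicates 1 and 2, and 11.03 and 11.17 in control. It was the reverse of SDHA, with every replicate 3 array below every other array and a log2 difference of -0.77 ± 0.07 (adjusted p 1.89e-12). SDHC, the other membrane anchor, had 9.56, 9.79 and 9.55 in replicate 3, against 10.21, 10.26 and 10.34 in replicates 1 and 2, and 9.92 and 10.26 in control. Its log2 difference was -0.63 ± 0.07, and its 3 other probe sets above 7 had -0.59, -0.60 and -0.50.

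In complex III 4 members were lower, 2 higher and 1 not called, with a median log2 difference of -0.51. UQCRC2, a core protein on the matrix side, had 10.83, 10.97 and 10.69 in replicate 3 with miR-99a, miR-100 and both, against 10.44, 10.55 and 10.65 (lowest, median, highest) in replicates 1 and 2, and 10.74 and 10.82 in control. It was higher in replicate 3 than in the other treated arrays by 0.29 ± 0.07 (adjusted p 0.000624), but overlapped with control. Its other bright probe set rose too, by 0.33. UQCRC1, its partner, was higher by 0.21 ± 0.07 (adjusted p 0.0139), a call that ended without miR-100 replicate 3 (0.13, adjusted p 0.21). Cytochrome c1, CYC1, which passes electrons to cytochrome c, had a log2 difference of -0.01 ± 0.07 with a 95% interval of -0.15 to 0.13. The small accessory subunits were all lower, with -0.71 for UQCRB, -0.71 for UQCR11, -0.60 for UQCRQ and -0.51 for UQCR10, each with an SE of 0.07. UQCRB had 12.13, 12.24 and 12.27 in replicate 3, against 12.81, 12.88 and 13.06 in replicates 1 and 2, and 12.47 and 12.84 in control.

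Complex IV had no member higher in replicate 3, with 11 lower and 6 not called and a median log2 difference of -0.59. COX7A2 had the largest fall, -0.77 ± 0.07 (adjusted p 1.12e-12), with levels of 11.54, 11.73 and 11.63 in replicate 3 with miR-99a, miR-100 and both, against 12.28, 12.38 and 12.55 (lowest, median, highest) in replicates 1 and 2, and 11.99 and 12.29 in control. COX7A2L, which takes part in joining complexes III and IV into supercomplexes, had -0.76 and COX7B -0.74, each ± 0.07. COX4I1, the common isoform of the largest nuclear subunit, was not called (-0.13 ± 0.07, adjusted p 0.168). Its levels of 12.28, 12.47 and 12.39 in replicate 3 overlapped with those of 12.33 to 12.64 in replicates 1 and 2. It was called lower without miR-100 replicate 3 (-0.21, adjusted p 0.0336) and without miR-100 replicate 2 (-0.17, adjusted p 0.0476), and with array weights (-0.19, adjusted p 0.0187). COX5A, which fell by 0.32 on the log2 scale, lost its call after quantile normalization (-0.12, adjusted p 0.083), while COX5B had -0.53 ± 0.07.

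Several complex IV subunits have isoforms made in other tissues, and these separated by brightness. COX4I2, COX6A2, COX6B2, COX7A1 and COX7B2, known for expression in lung, muscle or testis, had mean levels below 7, where the arrays hardly distinguish a signal, and none was called (log2 differences of -0.15 to -0.02). COX7B2 was called lower when each gene was taken as the mean of its probe sets (adjusted p 0.0398), with array weights (0.0181) and without miR-100 replicate 2 (0.0424). The first of these settings left its own difference at -0.15, since COX7B2 has 1 probe set. Of their common counterparts COX6A1, COX6B1, COX7A2 and COX7B were lower, with -0.60, -0.61, -0.77 and -0.74, while COX4I1 was not called (-0.13). COX8C, known as a testis isoform, was an exception, a bright probe set with levels of 9.33, 9.67 and 9.49 in replicate 3, against 10.09, 10.26 and 10.36 in replicates 1 and 2, and 9.90 and 10.14 in control. Its log2 difference of -0.75 ± 0.07 was close to that of the common isoform COX8A, -0.67 ± 0.07. Only 1 probe set represents COX8C, so the signal has no second measurement.

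Complex V had 15 members lower, 2 higher and 1 not called, with a median log2 difference of -0.53. The 2 higher ones were the subunits of the catalytic ring. ATP5F1A, the alpha subunit, had 12.91, 12.93 and 12.87 in replicate 3 with miR-99a, miR-100 and both, against 12.47, 12.61 and 12.78 (lowest, median, highest) in replicates 1 and 2, and 12.80 and 12.78 in control. ATP5F1B, the beta subunit, had 11.85, 11.96 and 11.83 in replicate 3, against 11.51, 11.61 and 11.71 in replicates 1 and 2, and 11.70 and 11.71 in control. For both genes the replicate 3 arrays lay above all others, and the log2 differences within treatments were 0.29 ± 0.07 and 0.27 ± 0.07 (adjusted p 0.000518 and 0.00108). The call of ATP5F1A ended when it was averaged with its probe set below 7 (0.15, adjusted p 0.0589).

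The subunits of the central and peripheral stalks and of the membrane part were lower. ATP5F1E, the epsilon subunit, had 12.19, 12.32 and 12.32 in replicate 3 with miR-99a, miR-100 and both, against 12.87, 12.95 and 13.23 in replicates 1 and 2, and 12.56 and 12.87 in control, a log2 difference of -0.74 ± 0.07 (adjusted p 1.87e-12). The gamma subunit ATP5F1C, which turns inside the catalytic ring, fell by only 0.19 ± 0.07 (adjusted p 0.035). That call rests on the setting, since it ended in 6 of the 9 refits that left out 1 array and turned to 0.02 (adjusted p 0.845) after quantile normalization. ATP5PB, of the peripheral stalk, had -0.20 ± 0.07 and lost its call after quantile normalization (-0.03, adjusted p 0.779) and in 5 refits without 1 array. ATP5MK and ATP5MJ, small proteins of the membrane part, had -0.75 and -0.74, and ATP5PF, of the peripheral stalk, -0.64. The 3 genes for the c ring, ATP5MC1, ATP5MC2 and ATP5MC3, whose mature proteins are identical, had -0.50, -0.57 and -0.53. ATP5IF1, matched by the rule although it encodes the inhibitor of the enzyme and not a subunit, had -0.48 ± 0.07. ATP5MF had a single dim probe set and no call (0.05).

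**Figure D2:**
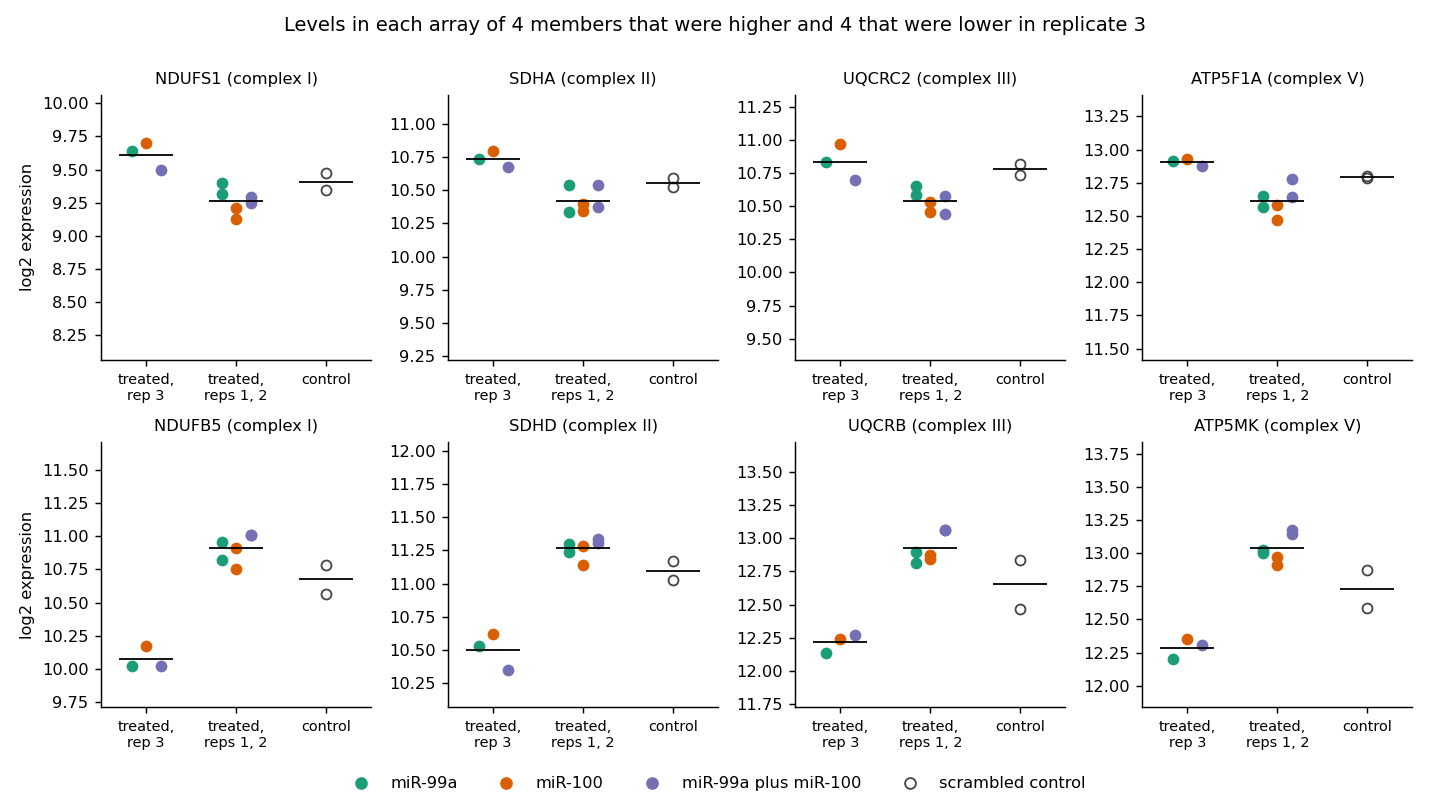
Log2 expression of NDUFS1, SDHA, UQCRC2 and ATP5F1A (upper row) and of NDUFB5, SDHD, UQCRB and ATP5MK (lower row) in every array. Points are single arrays coloured by treatment, open circles are scrambled control and lines are means of 3 replicate 3 arrays, 6 treated arrays of replicates 1 and 2, and 2 control arrays, with each axis spanning 2 log2 units. The means of the upper genes are highest in replicate 3 and those of the lower genes lowest, with the control mean between the other 2 groups.

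Promoters of the members are shown for 2 genes that rose and 2 that fell in replicate 3, 1 pair of them from the same complex. Of the members 66 matched a promoter in RefSeq (GRCh38.p14), which runs from 250 bases before to 50 after a transcript start (for 57 of the 66, the gene's outermost one). Letters searched on both strands were CGCATGCG (the core of the NRF1 motif), CCGGAAG (ETS family, which includes GABPA), AAGATGGCG (YY1) and CACGTG (E-box). Capitals mark matches. Only exact letters were searched, so sites that differ by a letter are not marked. SDHA (chr5:218070-218369, plus strand) holds no exact match in this window. SDHD (chr11:112086623-112086922, plus strand) holds the NRF1 and ETS letters and UQCRC1 (chr3:48609597-48609896, minus strand) the YY1 letters. ATP5PF (chr21:25734855-25735154, minus strand) holds 1 copy of the YY1 letters and 2 of the ETS letters.
SDHA: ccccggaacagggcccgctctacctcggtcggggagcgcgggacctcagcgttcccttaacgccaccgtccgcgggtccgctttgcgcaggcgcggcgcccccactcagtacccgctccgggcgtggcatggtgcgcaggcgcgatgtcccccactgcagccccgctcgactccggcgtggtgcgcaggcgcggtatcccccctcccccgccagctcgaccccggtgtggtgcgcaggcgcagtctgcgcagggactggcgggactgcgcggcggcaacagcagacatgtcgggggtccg
UQCRC1: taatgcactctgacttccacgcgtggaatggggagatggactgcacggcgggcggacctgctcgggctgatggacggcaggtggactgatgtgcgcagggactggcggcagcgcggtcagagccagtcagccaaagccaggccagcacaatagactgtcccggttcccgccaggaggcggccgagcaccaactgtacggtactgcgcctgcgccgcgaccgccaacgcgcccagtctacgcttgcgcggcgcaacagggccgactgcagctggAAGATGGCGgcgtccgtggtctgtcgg
SDHD: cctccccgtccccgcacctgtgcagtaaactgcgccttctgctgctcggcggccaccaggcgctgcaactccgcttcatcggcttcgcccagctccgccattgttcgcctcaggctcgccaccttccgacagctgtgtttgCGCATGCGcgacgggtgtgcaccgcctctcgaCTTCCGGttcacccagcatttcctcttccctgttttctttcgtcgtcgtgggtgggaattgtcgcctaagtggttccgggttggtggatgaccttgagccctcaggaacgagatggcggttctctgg
ATP5PF: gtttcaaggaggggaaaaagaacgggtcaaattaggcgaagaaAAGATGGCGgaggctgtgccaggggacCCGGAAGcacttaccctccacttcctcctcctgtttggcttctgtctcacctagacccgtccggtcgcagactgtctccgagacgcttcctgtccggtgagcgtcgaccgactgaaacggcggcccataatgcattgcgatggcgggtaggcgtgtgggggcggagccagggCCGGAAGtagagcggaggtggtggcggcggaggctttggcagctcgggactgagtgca

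The ETS letters were found in 18 of the 66 member promoters (27.3%), against 10.5% of all 27305 promoters of that length. The NRF1 core was found in 8 (12.1%, against 2.07%), the YY1 letters in 8 (12.1%, against 1.79%) and the E-box in 7 (10.6%, against 7.19%). Among members with a promoter that were called higher in replicate 3, 1 of 9 held the ETS letters, 1 of 9 the NRF1 core and 2 of 9 the YY1 letters. Among those called lower the counts were 14, 7 and 5 of 50. These shares describe letters in the windows, not binding.

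The replicate 3 difference was seen in each treatment. The median over members was -0.64 for miR-99a, -0.33 for miR-100 and -0.63 for both oligos, and 65, 62 and 64 of the 78 members were lower. Genes of like level had medians of -0.16, 0.10 and -0.17 in the same treatments, so that the members stood -0.48, -0.43 and -0.45 from them. In the test of whether the difference varied between treatments, 0 of 78 members and 0 of 19777 genes were called by limma's F test, which had 3 residual degrees of freedom. The lowest adjusted p among members was 0.566, and 17 members and 1707 genes had an unadjusted p under 0.05. By complex, the smallest shift was that of complex I with miR-100, a median of -0.25, against -0.63 with miR-99a and -0.58 with both.

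**Figure D3:**
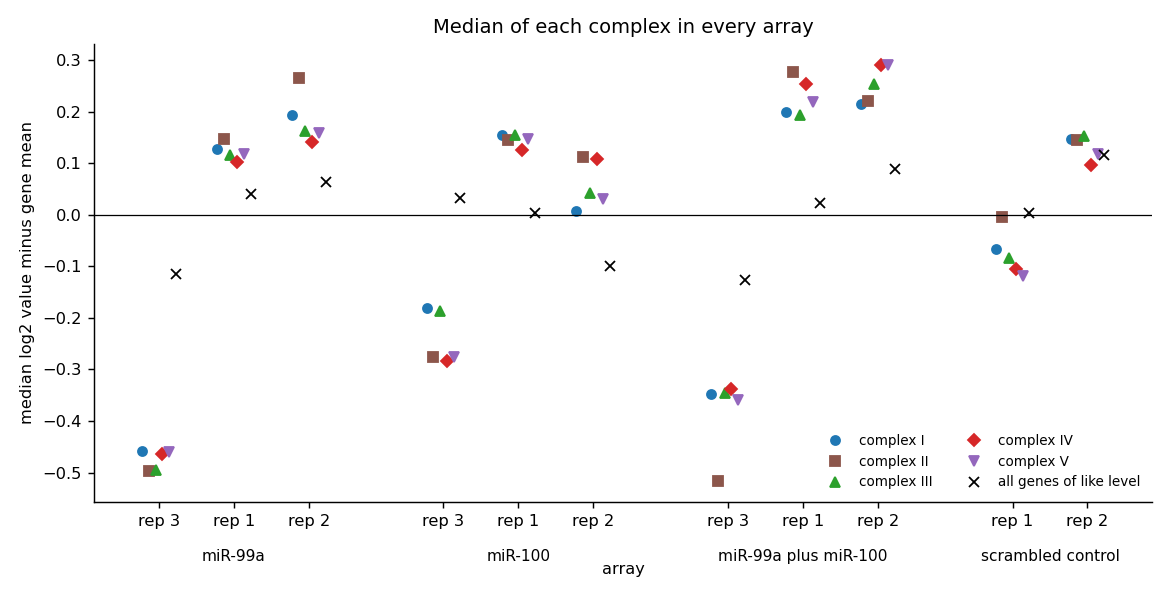
Median over the members of each complex of the log2 value minus the gene's mean over the 11 arrays, for every array, with the same for 1398 other genes of like level (crosses). Arrays are grouped by treatment with scrambled control at the right, and replicate 3 is first within each treatment. All complexes lie below 0 in the 3 replicate 3 arrays and above 0 in the 6 other treated arrays, and control replicate 1 lies below control replicate 2.

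The 2 control arrays, which took no part in that comparison, also differed from each other. All 56 members called lower in replicate 3 were lower in control replicate 1 than in control replicate 2, with a median difference of -0.26 (range -0.43 to -0.06). The 10 members called higher had a median of -0.06, with 8 lower and 2 higher. Genes of like level had a median of -0.12, and 1138 of 1398 were lower. A pair of single arrays allows no test. Between replicates 1 and 2 of the treated cells the member medians were smaller, -0.07 for miR-99a, 0.07 for miR-100 and -0.05 for both oligos.

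Genes around the chain went in different directions in replicate 3. Of the subunits made from mitochondrial DNA, 7 had a probe set. All 7 were lower in direction and 6 were called lower, with a median of -0.26, and 3 had arrays that did not overlap. By treatment 4 of 7 were lower in direction with miR-99a (median -0.12), 7 with miR-100 (-0.35) and 7 with both (-0.44). ND2 of complex I had 13.06 to 13.19 in replicate 3, against 13.49 to 13.75 in replicates 1 and 2 (-0.47 ± 0.07). COX3 of complex IV had -0.42 ± 0.08, ND4 -0.35 ± 0.07 and ATP6 of complex V -0.26 ± 0.07. COX1, the catalytic subunit of complex IV, was not called (-0.14 ± 0.07).

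The citrate cycle, which feeds NADH and succinate into the chain, had 7 of 11 measured genes called higher, 0 called lower and a median of 0.24. DLST, the core of the oxoglutarate dehydrogenase complex, had 9.19 to 9.39 in replicate 3, against 8.70 to 9.01 in replicates 1 and 2, a log2 difference of 0.43 ± 0.07. SUCLG1 and SUCLA2 of succinyl-CoA synthetase had 0.37 ± 0.07 and 0.34 ± 0.07, and IDH3B of isocitrate dehydrogenase 0.30 ± 0.07. CS, the citrate synthase, had -0.01 ± 0.07 and MDH2, malate dehydrogenase, -0.04 ± 0.07. SDHA, counted in complex II, is the enzyme of that cycle as well.

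Among 48 assembly factors 22 were called lower and 10 higher, with a median of -0.11. In direction alone 29 of 48 were lower. The median was -0.26 with miR-99a and -0.19 with both oligos but 0.03 with miR-100, where 21 of 48 were lower in direction. COX16 and COX11 of complex IV assembly had -0.86 ± 0.07 and -0.72 ± 0.07, SDHAF3 of complex II -0.79 ± 0.07 and TMEM126B of complex I -0.75 ± 0.07. The largest rises, chosen after their values were seen, were those of ACAD9 of complex I assembly (0.32 ± 0.07) and COX15, which makes haem a (0.30 ± 0.07). Of 10 carriers 2 were called lower and 2 higher. SLC25A4 and SLC25A5, which both exchange ADP and ATP over the inner membrane, differed in direction, with -0.80 ± 0.07 and 0.20 ± 0.06. CYCS, cytochrome c itself, had -0.66 ± 0.07, and ETFDH, which brings electrons from fatty acid oxidation to ubiquinone, 0.31 ± 0.07.

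A list of 16 genes held regulators of nuclear transcription together with genes that act on mitochondrial DNA. Of these, 6 were called higher and 3 lower. The helicase of mitochondrial DNA, TWNK, had 0.35 ± 0.07, whereas the nuclear receptor ESRRA had -0.41 ± 0.07 and TFAM, which packages and transcribes mitochondrial DNA, -0.39 ± 0.07. POLG, the mitochondrial DNA polymerase, had 0.25 ± 0.07. NRF1 itself was not called (0.14 ± 0.07), GABPA was higher (0.24 ± 0.07) and YY1 lower (-0.19 ± 0.07). These 3 genes are named because the letters searched above belong to them or their family.

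**Figure D4:**
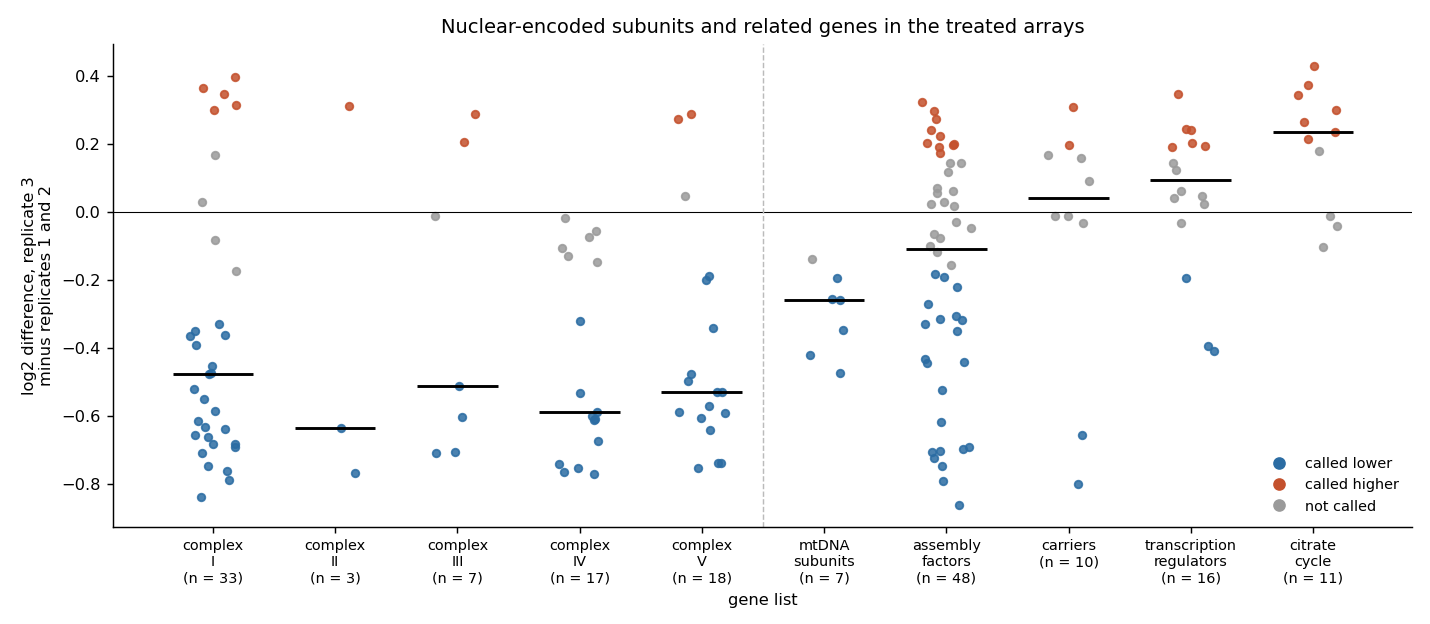
Log2 difference between replicate 3 (3 arrays) and replicates 1 and 2 (6 arrays) of the treated cells for the members by complex (left of the dashed line) and for related lists (right). Points are genes coloured by their call at an adjusted p of 0.05 over all genes, and lines are medians. The medians of complexes I to V lie between -0.63 and -0.47 and that of the citrate cycle at 0.24.

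Against scrambled control no member was called in any treatment over all arrays with a mean per group, nor was any other gene. With replicate 3 as a term in the same 11 arrays, 11 members were called higher and 1 lower for the combination, against 0.809% and 1.43% of all genes. With miR-99a, miR-100 and both (n = 3 each against 2), 0% of all genes passed, and the same held for miR-100 against miR-99a and for both oligos against the average of either alone. With a mean per group, 0, 0, 1, 0 and 0 members had an unadjusted p under 0.05 in limma in these 5 comparisons. Over all genes the numbers were 198, 305, 724, 194 and 451. That fit counts the replicate 3 difference as spread. With replicate number as a block they were 21, 33, 43, 0 and 13 members and 1981, 2502, 3535, 363 and 1097 genes. Control was not taken as paired with treated arrays by number. With a mean per group the member medians were -0.06 for miR-99a, -0.02 for miR-100 and 0.01 for both oligos. Genes of like level had -0.07, -0.08 and -0.06. Without scrambled control replicate 1 the member medians were -0.18, -0.14 and -0.10, and without scrambled control replicate 2 they were 0.04, 0.08 and 0.12. The sign of the member medians thus rests on single control arrays. Without the replicate 3 array of its own treatment each was above 0, at 0.14, 0.08 and 0.22. The 3 comparisons with control share its 2 arrays. Between the treatments the medians were 0.02 for miR-100 minus miR-99a and 0.07 for the combination minus the single oligos. Leaving out 1 array moved the first between -0.16 (without miR-99a replicate 3) and 0.14 (without miR-99a replicate 2), and the second between -0.03 (without the combination's replicate 2) and 0.27 (without its replicate 3). With replicates 1 and 2 only, miR-100 minus miR-99a had a median of -0.07 with 70 of 78 members lower, against 20 of 78 lower over all arrays.

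Single members had wide intervals in these comparisons, in which each treated group held its replicate 3 array. SDHA averaged 10.54 ± 0.20 for miR-99a, 10.51 ± 0.25 for miR-100 and 10.53 ± 0.15 for both oligos (SD, n = 3), against 10.56 ± 0.04 in control (SD, n = 2), and its log2 differences were -0.02, -0.05 and -0.03 with 95% intervals of -0.35 to 0.31, -0.38 to 0.28 and -0.36 to 0.30. ATP5F1E had 12.65 ± 0.40, 12.74 ± 0.36 and 12.91 ± 0.52, against 12.72 ± 0.22 in control, and its interval with both oligos ran from -0.47 to 0.86. COX4I1 had -0.14 ± 0.10 with miR-99a, the smallest p of the falls after NDUFA9, and UQCRC1 had 0.12 ± 0.11 in the other direction. The other members with the smallest p of a comparison were mostly dim ones, none of them called. ATP5MF had 0.14 ± 0.09 with miR-99a, COX7A1 had 0.13 ± 0.08 with both oligos, COX6A2 had -0.11 ± 0.08 in miR-100 minus miR-99a, and COX6B2 had -0.12 ± 0.07 in the combination minus the single oligos.

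NDUFA9, an accessory subunit of complex I near the quinone site, was the member with an unadjusted p under 0.05 in the fit with a mean per group. It had 9.77, 9.90 and 10.004 with both oligos, 10.02, 9.74 and 10.19 with miR-100 and 9.91, 10.03 and 9.99 with miR-99a, against 10.23 and 10.17 in control. Each array with both oligos or with miR-99a lay below both control arrays, while 1 array with miR-100 lay between them. The log2 differences were -0.31 ± 0.12 with both (p 0.0253 and adjusted p 1 in limma), -0.22 ± 0.12 with miR-100 and -0.22 ± 0.12 with miR-99a. NDUFB7, a complex I subunit of the intermembrane space side, had -0.14 ± 0.07 with both and -0.14 ± 0.07 with miR-100. Arrays of treatment and control did not overlap on the lower side in 1 member for miR-99a, 2 for miR-100 and 3 for both oligos, against 7.88%, 6.19% and 11.4% of all genes. On the higher side 1 member did so in each, against 7.55%, 7.18% and 9.11%.

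With replicates 1 and 2 alone (n = 2 against 2), the member medians lay above control in each treatment. They were 0.14 for miR-99a, 0.08 for miR-100 and 0.22 for both oligos, against -0.03, -0.12 and -0.01 for genes of like level. With miR-99a and miR-100 no member was called. With both oligos 10 members were called higher and 1 lower, against 0.92% and 0.546% of all genes. ATP5F1E had 13.23 and 13.19 with both oligos, against 12.56 and 12.87 in control (0.49 ± 0.09, adjusted p 0.0146). COX7C of complex IV had 13.53 and 13.57 with both, against 12.98 and 13.25 in control (0.43 ± 0.09, adjusted p 0.0182). The other 8 were COX7B, COX6A1, COX7A2 and COX6C of complex IV, ATP5MK and ATP5MJ of complex V, UQCRB and NDUFAB1, with 0.37 to 0.44. NDUFA9 was the one called lower (-0.36 ± 0.09, adjusted p 0.0485).

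All 10 of those called higher were among the members called lower in replicate 3, and both comparisons use replicates 1 and 2 of the combination. The combination's replicate 3 array was below both control arrays in each of them, as for ATP5F1E at 12.32 and COX7C at 12.84. The direction against control therefore differed between the arrays of 1 treatment. In the same fit 4 of 7 mitochondrial DNA subunits were called higher, with a median of 0.35, and the citrate cycle genes had a median of -0.21 with 1 of 11 called lower.

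**Figure D5:**
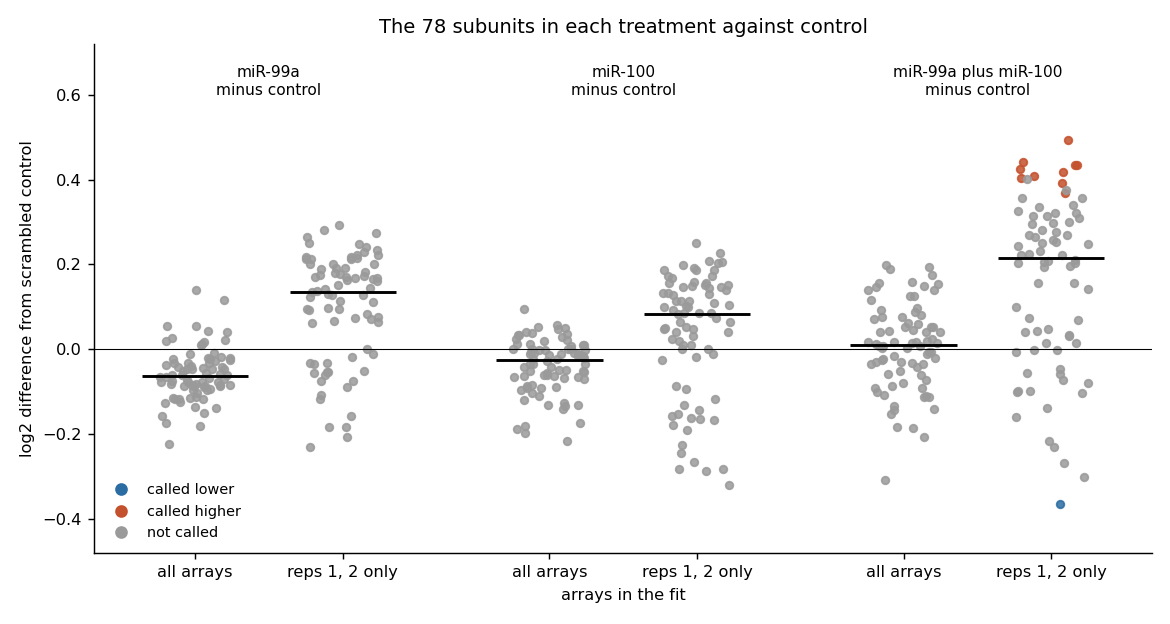
Log2 difference of the 78 members from scrambled control with miR-99a, miR-100 and both, each for all arrays (3 against 2) and for replicates 1 and 2 only (2 against 2). Points are members coloured by their call at an adjusted p of 0.05 over all genes, and lines are medians. The 10 higher calls and the lower call lie in the combination without replicate 3.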

How the data were processed

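Total RNA of 11 Reh samples was hybridised to 1-colour Affymetrix arrays after one-cycle labelling, per the labels' protocols. The log2 expression values deposited by the authors were used as they stand. The method of background correction, summarisation and normalization is not given in the sources used here, and the scale was read from the values (4.39808 to 14.8386). The number of arrays limits the precision.

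Of 54675 probe sets 41091 list a single gene in the platform annotation and 1801 list several, and probe sets that list several named no gene here. Each of 19777 genes was represented by its single-symbol probe set with the highest mean. The members and all lists (assembly factors, carriers, regulators, citrate cycle, mitochondrial DNA subunits, catalytic subunits, cell type markers) were chosen with earlier results of these data known, so they are not independent evidence. Tests used lmFit and eBayes of limma 3.58.1 in R 4.3.3, with Benjamini-Hochberg adjustment over all genes. The replicate 3 comparison used 9 treated arrays with a mean per treatment and a term for replicate 3, and treatments were compared with a mean per group over 11 arrays. The fits were tested on simulated data. Figures were drawn with matplotlib 3.10.9.

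Named genes were the catalytic and linking subunits, members with a paralogue among them, per complex the 4 called members with the largest difference and the 2 closest to 0, per treatment comparison any called member or otherwise the 2 with the smallest p in each direction, and up to 4 called genes per related list. Genes outside this rule are named as further examples, chosen after their values were seen. Same-numbered arrays of different treatments deviated together in 9 of 9 pairs (r from 0.168 to 0.816). Replicate 3 stood apart in every treatment, which by itself raises r, and arrays of different numbers were not compared. These values therefore cannot show whether replicate numbers 1 and 2 pair the treated arrays. For control with treated arrays 3 of 6 pairs had r above 0.1 (-0.152 to 0.438), so those were not taken as paired. Alternatives were quantile normalization, a filter on dim genes, the mean of a gene's probe sets, another prior, array weights, other terms for the replicate number, and leaving out each array.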

Additional observations from a re-analysis of the deposited data

How the results depend on the processing

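In the replicate 3 comparison 53 to 59 members were called lower under every alternative run, against 56 as reported, and 6 to 11 higher, against 10. The 6 came with the mean of all probe sets of a gene, which adds dim probe sets. The member median of -0.53 was -0.387 after quantile normalization, -0.345 with the mean of probe sets and -0.588 with array weights, and leaving out 1 array gave -0.625 (without miR-100 replicate 3) to -0.484. The difference of ATP5F1C turned to 0.0219 (adjusted p 0.845) after quantile normalization, and the cause was not tested. Over all genes, 3385 were called higher and 2412 lower as deposited, 3151 and 3019 after quantile normalization, and 1967 and 2648 without miR-100 replicate 3. For the combination against control, 0 members were called as reported. With replicate number as a block 21 were called higher and 3 lower (1.45% and 2.92% of all genes), with replicate 3 as a term 11 and 1, and with replicates 1 and 2 only 10 and 1, each fit taking out or leaving out the spread of replicate 3. The control arrays hold no replicate 3, so the direction under the block rests on replicates 1 and 2. Among treated arrays the replicate block gave 57 lower and 11 higher members in the replicate 3 comparison and no member call between treatments. The member median with miR-100 against control was -0.02 as deposited and 0.03 after quantile normalization, neither with a call. Dim probe sets, of which 6 members have only such, limit what could be seen for the tissue isoforms of complex IV and for ATP5MF.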

Other observations

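COXFA4, formerly NDUFA4 and now counted with complex IV, falls outside the symbol rule. It had a mean of 11.63 in replicate 3, against 12.40 in treated replicates 1 and 2 and 12.17 in control, a log2 difference of -0.77 ± 0.07. Among the other probe sets of members, those not used to represent a gene, 36 had a mean of 7 or more. Of these 25 were called lower in replicate 3 and 4 higher, with a median of -0.38. In that fit of 41091 probe sets 9.67% were called lower and 14.8% higher.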
